A study of Rattus norvegicus with 5 samples.

Results

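Cytosolic ribosomal protein genes were described over 5 arrays of rat lung RNA. Members were all genes whose single symbol in the platform's annotation begins with Rpl or Rps and a digit, or is Rpsa or Rplp0 to Rplp2, without the Rps6k kinases. The rule used names and no measured values. It gave 43 of 4736 named genes, read by 63 of 8740 probe sets, with 14 genes of the small and 29 of the large subunit. A further 40 probe sets that list several symbols, at least 1 of them ribosomal, were not assigned to a gene. Rplp1, Rplp2, Rps14, Rps19, Rps27a and Rpl10 had no probe set of their own by this rule and have no value here.

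Ribosomes are built from ribosomal RNA and one copy of most of these proteins, so their genes are expressed together in every cell that makes protein. Their mRNAs begin with a stretch of pyrimidines, the terminal oligopyrimidine tract, through which translation of the whole family is switched with growth signals. They are among the most abundant mRNAs of tissues such as lung, and a change in translation of these mRNAs would not show in an RNA level.

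Each array held a pool of equal RNA amounts from whole rat lung. Of the exposed arrays, early held RNA from 2, 4 and 6 h after intratracheal instillation of the urban dust EHC-93, intermediate from 15, 18 and 21 h, and late from 24, 32 and 40 h. The sham array pooled 2, 15 and 24 h after saline given by the same route, and the untreated array pooled 3 rats that were not instilled. Strain, age, dose and the number of instilled rats per pool were not given in the labels. Each group had 1 array, so differences between single arrays carry no replicate error.

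Values are deposited intensities scaled to a common array median, in the order early, intermediate, late, sham and untreated. A value under 172.53, the 40th percentile of all scaled values, was set to that floor before log2 was taken. Median deposited intensities lay between 262.4 and 300.9, and 3667 genes exceeded the floor on 1 array or more. Of 12 lung epithelium markers 9 were measured, with summed intensities from 197915 to 240369, so the labelled tissue was borne out on every array. The 5′ to 3′ signal ratio of beta-actin, a sign of RNA or copy integrity, was 43.1%, 9.07% and 19.6% in the early, intermediate and late pools, 14.7% in sham and 24.4% in untreated lung.

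Promoters are shown because the tract that defines the family's mRNAs lies at the start of transcription. A start region was given for 36 of the 43 members in RefSeq's rat assembly GRCr8. The lines give 60 bases before and 20 bases after the annotated start, 5′ to 3′ on the gene's strand. Capitals mark the longest unbroken run of C or T within 20 bases of the start on either side. The first 7 genes have a run of at least 8 bases within that distance, and the last 3 do not.
Rpsa, chr8:128728819-128728898, plus strand: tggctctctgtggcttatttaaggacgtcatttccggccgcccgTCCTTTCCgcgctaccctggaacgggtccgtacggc
Rplp0, chr12:46718371-46718450, minus strand: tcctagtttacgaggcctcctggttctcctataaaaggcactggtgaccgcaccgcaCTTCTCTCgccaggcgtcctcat
Rps23, chr2:23814457-23814536, plus strand: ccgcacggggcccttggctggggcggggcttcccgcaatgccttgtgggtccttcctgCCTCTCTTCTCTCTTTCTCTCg
Rpl23, chr10:83272165-83272244, minus strand: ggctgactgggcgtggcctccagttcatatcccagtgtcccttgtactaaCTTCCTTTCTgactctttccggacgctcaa
Rpl31, chr9:49143051-49143130, plus strand: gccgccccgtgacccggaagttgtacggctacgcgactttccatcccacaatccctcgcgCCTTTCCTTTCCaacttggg
Rpl35, chr3:43165902-43165981, minus strand: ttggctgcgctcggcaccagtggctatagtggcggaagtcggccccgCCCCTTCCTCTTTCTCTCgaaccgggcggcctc
Rpl35a, chr11:81235002-81235081, minus strand: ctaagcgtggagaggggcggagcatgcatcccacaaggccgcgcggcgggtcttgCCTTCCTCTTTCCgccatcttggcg
Rps6, chr5:106420521-106420600, minus strand: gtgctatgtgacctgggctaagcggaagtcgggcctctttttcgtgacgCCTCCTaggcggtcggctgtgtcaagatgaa
Rpl3, chr7:113507971-113508050, minus strand: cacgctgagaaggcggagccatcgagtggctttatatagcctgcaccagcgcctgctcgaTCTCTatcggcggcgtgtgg
Rpl26, chr10:54109632-54109711, plus strand: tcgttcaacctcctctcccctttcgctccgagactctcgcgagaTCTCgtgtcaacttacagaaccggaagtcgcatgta

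In 24 of 36 members (66.7%) the run had at least 8 bases, against 15.5% of all 27457 start regions in the same table. Its median length was 10.5 bases in members and 5 in all regions. Rps23, a protein of the decoding centre, had the longest run within this window, 21 bases, and Rpl35, which lies at the exit of the peptide tunnel, had 18. Runs were cut at the window's edge, as in Rpl7a, where 14 bases were counted and the pyrimidines continue before it. Rps6, the substrate of the S6 kinases, had 6, Rpl3 had 5 and Rpl26 had 4. The printed lines of Rps6 and Rpl26 hold longer pyrimidine runs farther before the start, across the window's edge or outside it. A short run here therefore does not show that a tract is absent, and it depends on where the start is annotated. Over the full regions of 300 bases and on both strands, CCGGAAG was found in 25% of members and 9.22% of all, AAGATGG in 22.2% and 7.3%, and TATAAA in 11.1% and 14.3%. These are matches of letters at annotated starts, and no site was measured.

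Members with and without such a run within 20 bases of the annotated start had like medians on the arrays. Members with a run of at least 8 (24 genes) had a median log2 difference from the mean of sham and untreated of -0.16, 0.30 and 0.28 for early, intermediate and late. Members with a shorter run (12 genes) had -0.17, 0.31 and 0.32. The median difference of early from intermediate was -0.52 in both. Rps6, Rpl26 and Rpl36, counted with the shorter runs, carry longer ones across or beyond the window's edge. The medians therefore cannot tell whether members with and without a tract differ.

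The family read low on the early array and high on the intermediate and late arrays, in small steps shared by most members. Of 43 members 42 exceeded the floor on 1 array or more and 40 on all. The exception, Rps2-ps1, is a pseudogene and lay at the floor throughout. The median log2 difference of the 42 from the mean of sham and untreated was -0.19, 0.31 and 0.28 for early, intermediate and late, and -0.01, 0.09 and 0.07 over all genes tested. Relative to all genes, the members' medians were -0.17, 0.22 and 0.21. Sham minus untreated was -0.05 for members and -0.04 for all genes. In bulk lung RNA, fewer cells of a type and less RNA per cell cannot be told apart.

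**Figure D1:**
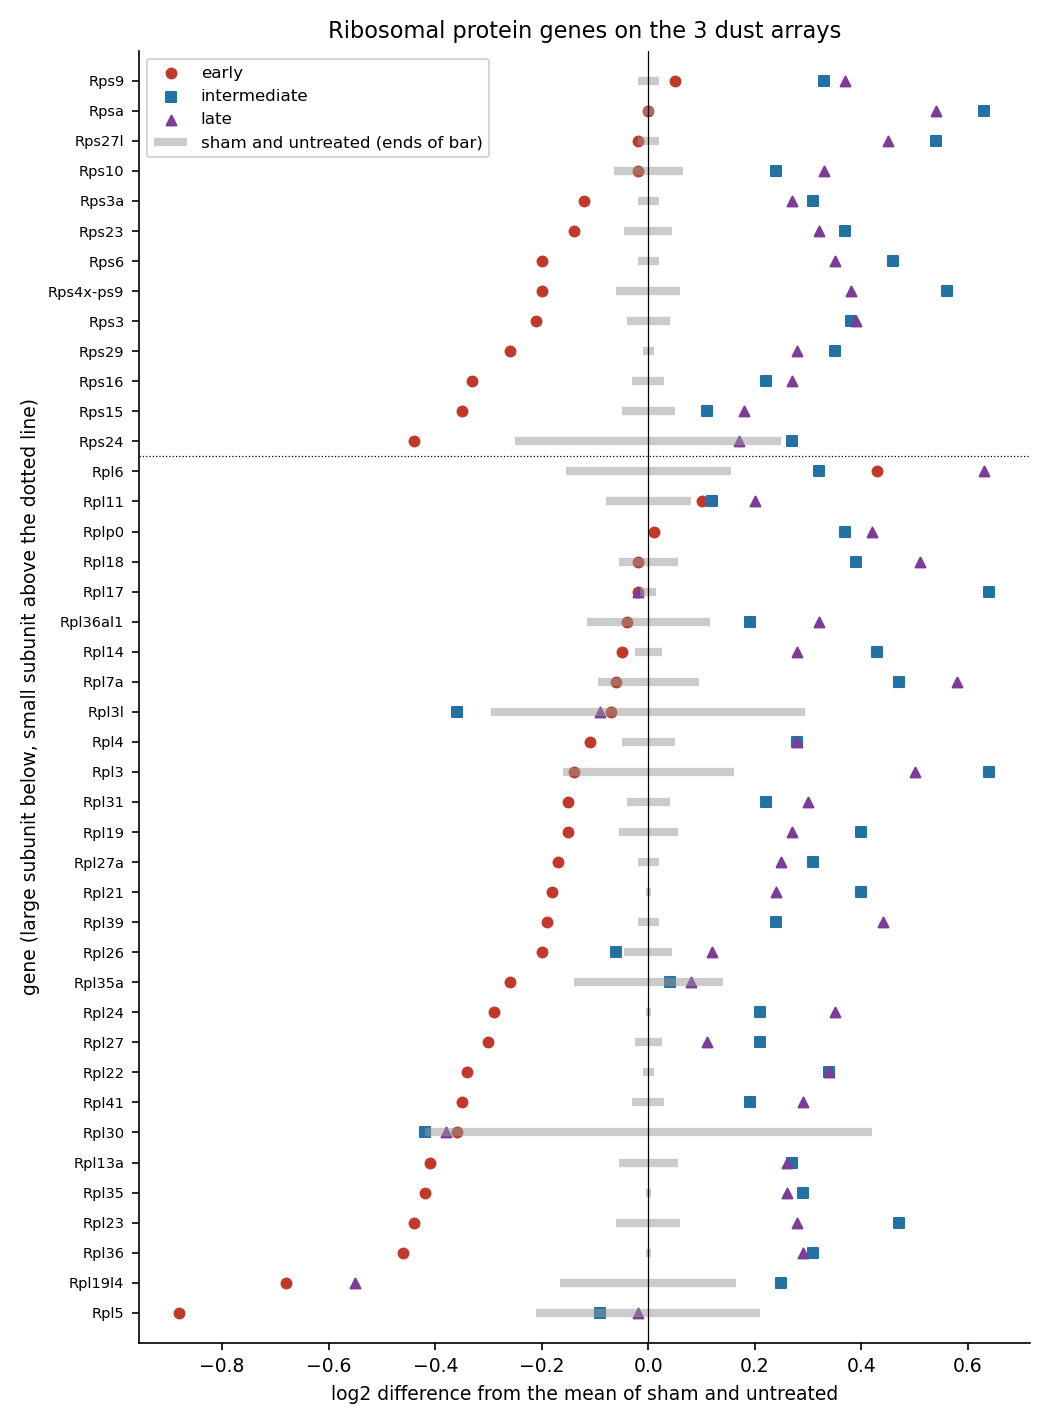
Log2 difference of each of the 42 member genes from the mean of the sham and untreated arrays (x axis), 1 row per gene, small subunit above the dotted line. The bar ends mark the sham and untreated arrays, and most early points lie left of 0 and most intermediate and late points right of it under common-median scaling; with scaling to spiked controls the medians are 0.20, -0.10 and 0.06.

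Counting order alone, 28 of 42 members lay below both control arrays on the early array, against 32.2% of all genes, and 4 above both, against 33.4%. The 4 were Rpl6, Rpl11, Rps9 and Rplp0. On the intermediate array 37 lay above both, against 46.1% of all genes, and Rpl3l and Rpl26 below both, against 18.8%. On the late array 35 lay above both, against 42.8%, and Rpl19l4 alone below both, against 20.8%. Among the 40 members above the floor throughout, 28 had their lowest value on the early array, 20 their highest on the intermediate and 17 their highest on the late array. No member was highest on the early array. Of 2743 other genes above the floor throughout, 28.4% were lowest and 21.5% highest on the early array. On the intermediate array 30.5% were highest and on the late array 21.1%.

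Few members stood far from the controls. A gene is counted here as different where it stood at least 1.5-fold from both controls. On the early array 1 member was lower, Rpl5, against 2.97% of all genes, and 0 were higher, against 6.84%. On the intermediate array Rpsa and Rpl17 were higher, against 4.75%, and 0 were lower, against 1.58%. On the late array 0 members were higher and 0 lower, against 3.05% and 3.46% of all genes. At 2-fold no member passed in either direction, where 2.54% of all genes were higher and 0.3% lower early, 0.873% and 0.218% at intermediate times and 0.6% and 1.04% late. For sham against untreated Rpl3l was at least 1.5-fold higher, against 6.44%, and Rpl30 lower, against 7.5%. The shares of members at 1.5-fold were thus near or under those of all genes. The Rpsa and Rpl17 counts were lost under the other scalings tried. With a floor at the 60th percentile that of Rpl5 was lost and Rpl17 was not tested. Rpl5 was also not counted with scaling to the spiked controls. Without probe sets from expressed sequence tags it was not tested. Without the sham array 4 members were lower on the early array, and without the untreated array 4 were higher at intermediate and 3 at late times. With 1 control array left the rule asks for a difference from that array alone, so counts could rise by the rule itself. No share of all genes is given for it.

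Other bright genes also read high on the intermediate and late arrays, and the control transcripts spiked in on such arrays were low on the early array and high on both later ones. The 97 other genes between the members' quartiles of brightness (mean intensity 9345 to 24382) had medians of -0.04, 0.25 and 0.21 for early, intermediate and late. Of them 46.4% lay below and 41.2% above both controls on the early array, where 9.52% of members lay above both, and 71.1% and 73.2% above both on the intermediate and late arrays. The 6 spiked bacterial and phage control probe sets had medians of -0.37, 0.40 and 0.19. CreX-3, the brightest of these, read 12104, 21007 and 17784 in the early, intermediate and late pools, 14871 in sham and 17451 in untreated lung. With arrays scaled to the spiked controls the members' medians turned to 0.20 on the early and -0.10 on the intermediate array and were 0.06 on the late array, while all genes stood at 0.34, -0.22 and -0.09. Relative to all genes the members kept the signs, at -0.14, 0.13 and 0.15. A factor per array moves the members and all genes alike, floored values aside, so it could hardly change these signs. After quantile normalization, which gives all arrays one distribution, the relative medians were -0.06, 0.04 and 0.03. The 5′ to 3′ ratio of beta-actin given above was highest on the early array, where members read lowest, and lowest on the intermediate array. The part of brightness, hybridisation and RNA integrity in the members' shift was not tested.

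**Figure D2:**
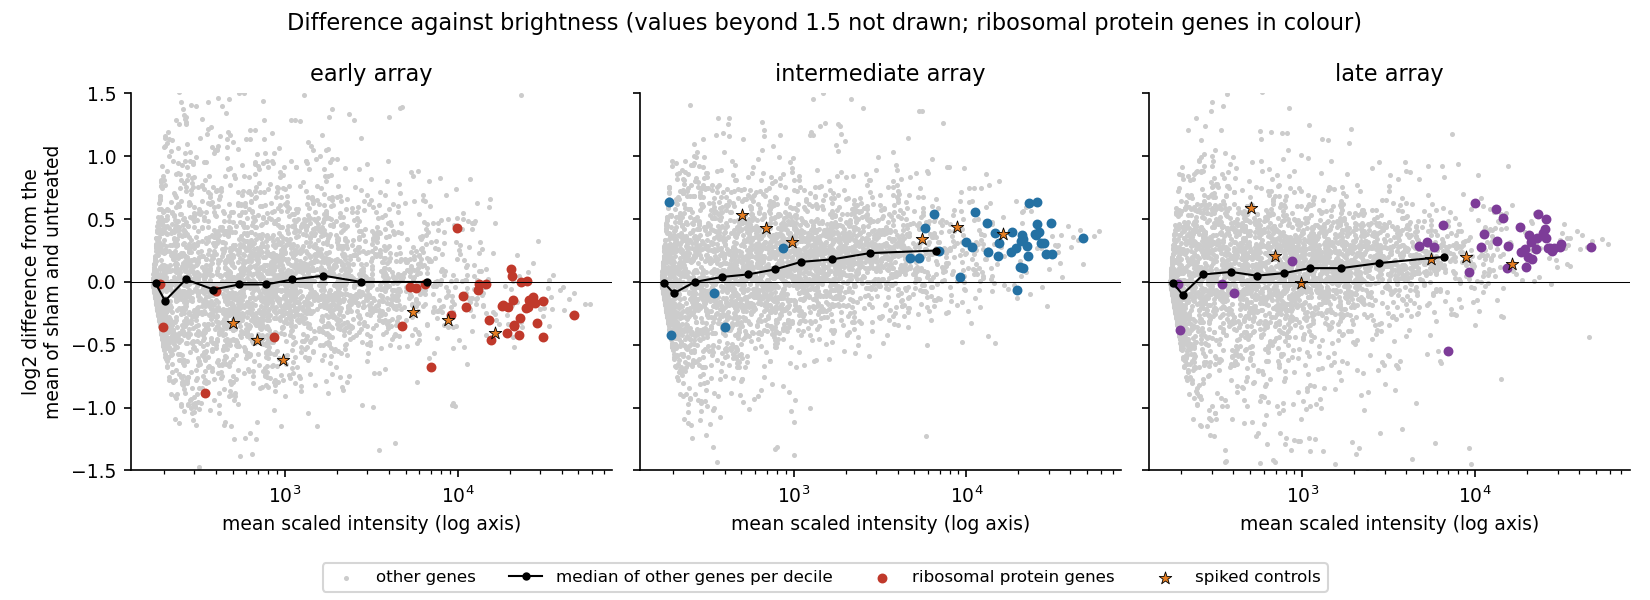
Log2 difference from the mean of sham and untreated (y axis) against mean scaled intensity over the 5 arrays (x axis, log scale) for all other genes (grey), their median per decile of brightness (black line), the members (colour) and 6 spiked controls (stars), 1 panel per exposed array under common-median scaling. The line reaches 0.25 (intermediate) and 0.20 (late) in the brightest decile, which holds 37 members, and is 0.00 there on the early array, where the members' median is -0.19; scaling to the spiked controls turns the members' early and intermediate medians to 0.20 and -0.10.

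**Figure D3:**
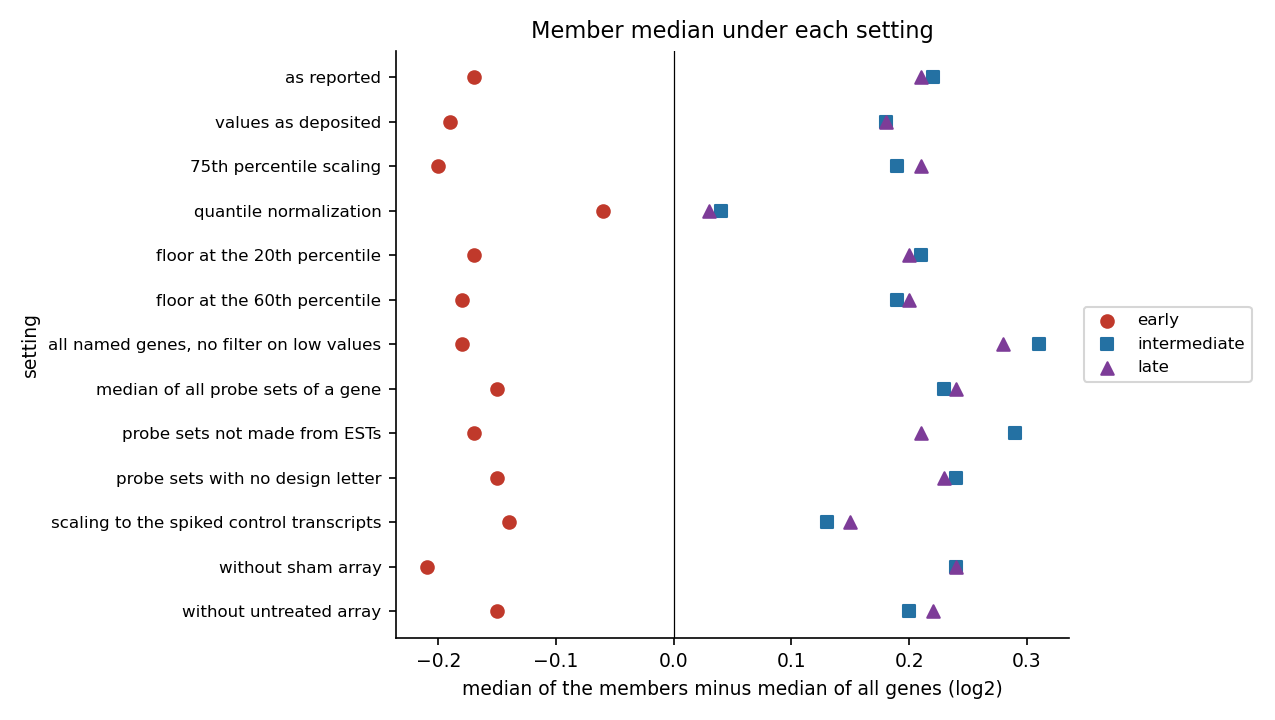
Median of the members minus the median of all genes on the log2 scale (x axis) for each exposed array under each setting (rows). The early value lies below 0 and both others above 0 in every row, and all lie closest to 0 with quantile normalization, at -0.06, 0.04 and 0.03. A factor per array moves members and all genes alike, floored values aside, so rows that differ only in such scaling were bound to be close.

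In the small subunit the 13 genes tested had medians of -0.20, 0.35 and 0.33 on the 3 exposed arrays, which with scaling to the spiked controls turned to 0.20 and -0.05 on the early and intermediate arrays and were 0.11 on the late one. Directions of single genes below are those under common-median scaling; under scaling to the spiked controls 26 of 42 members lay above both controls on the early and 20 below both on the intermediate array. Rpsa, a small subunit protein also known as a laminin receptor, read 19720, 30674 and 28660 in the early, intermediate and late pools, 19907 in sham and 19645 in untreated lung. The early array and both controls were nearly level, and the other exposed arrays stood above them. The intermediate value was 1.54-fold over sham and 1.56-fold over untreated, and the late value 1.44-fold and 1.46-fold. A second Rpsa probe set gave 0.71 for the intermediate array and 0.57 for the late array on the log2 scale, where the first gave 0.63 and 0.54. On the early array it gave -0.23 where the first was level with the controls.

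Rps6 read 20488, 32361 and 29981 in the early, intermediate and late pools, 23770 in sham and 23191 in untreated lung. Its early value lay under and its later values over both controls. A second Rps6 probe set read 7534 on the early array, between its controls at 7162 (sham) and 8322 (untreated). Rps3, which lines the channel where mRNA enters, was lowest early and above both controls later on its brighter probe set. It read 19862, 29763 and 30078 in the early, intermediate and late pools, 22289 in sham and 23549 in untreated lung. A second Rps3 probe set read 11482 on the early array, between its controls at 10490 and 11785. Rps29, a small zinc-binding protein, read 37343, 57123, 54363, 44362 and 45092 in the order of arrays given above. Rps27l, a paralog of Rps27 known as a target of p53, kept its control level on the early array: it read 5608, 8236, 7768, 5591 and 5756. Rps9, needed for assembly of the subunit, was among the narrowest, with 19223, 23353, 24145, 18892 and 18358. Its lowest value was that of the untreated array. Rps3a, Rps10, Rps16 and Rps23 had early differences from -0.33 to -0.02, intermediate differences from 0.22 to 0.37 and late differences from 0.27 to 0.33 on the log2 scale.

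Rps24, a protein mutated in Diamond-Blackfan anaemia, was dim, at 640.6, 1043, 975.9, 727.9 and 1033, with sham and untreated a log2 difference of -0.50 apart. A brighter probe set that lists Rps24 beside other symbols read 22357, 20859 and 24505 in the early, intermediate and late pools, 19099 in sham and 21615 in untreated lung, and did not share that order. Rps15 had 3 probe sets whose differences on the intermediate array ran from -0.17 to 0.57. Rps4x-ps9, annotated as a pseudogene, read 8776, 14860, 13133, 9682 and 10524. Ribosomal protein genes have many near-identical copies, so which copy such a probe set reads is uncertain.

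In the large subunit the 29 genes tested had medians of -0.18 on the early array and 0.28 on both later arrays, against 0.20, -0.12 and 0.06 with scaling to the spiked controls. Relative to all genes they were -0.17, 0.19 and 0.21, and the late value turned to -0.01 with quantile normalization. Rplp0, the base of the stalk that recruits elongation factors, read 22714, 29205 and 30361 in the early, intermediate and late pools, 22635 in sham and 22594 in untreated lung. Like Rpsa it was level on the early array and both controls and higher on the intermediate and late arrays, with log2 differences of 0.37 and 0.42. Rpl7a, which binds ribosomal RNA during assembly, read 10985, 15848, 17079, 10718 and 12242, and was highest on the late array. Rpl3, which reaches toward the peptidyl transferase centre, read 20257, 34850, 31720, 20042 and 25018. Its controls were themselves a log2 difference of -0.32 apart, sham lower, and the early value lay between them.

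Rpl6 departed from the family on the early array. It read 11057, 10243 and 12713 in the early, intermediate and late pools, 7368 in sham and 9112 in untreated lung, so that all 3 exposed arrays stood above both controls. The late value was 1.73-fold over sham and 1.40-fold over untreated. A second Rpl6 probe set was close to its controls on the early array, at 9042 against 8688 and 8933, a log2 difference of 0.04 where the first gave 0.43. Both probe sets had their highest value on the late array.

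Rpl5 and Rpl11 form a particle with 5S ribosomal RNA that binds the p53 regulator Mdm2 when assembly stalls. Rpl11 was the narrowest member, at 20427, 20773, 21994, 18089 and 20196. Its second probe set read 16125, 21180, 20145, 16793 and 17547, lowest on the early array and with a log2 step of 0.39 from early to intermediate where the first gave 0.02. Rpl5 was the widest of those above the floor throughout, at 215.6, 373.0 and 390.8 in the early, intermediate and late pools, 342.2 in sham and 458.3 in untreated lung. The early value was lowest, a log2 difference of -0.67 from sham and -1.09 from untreated, near the floor. A probe set that lists Rpl5 among several symbols read 19682, 23629, 24361, 20724 and 21640, also lowest on the early array but with a smaller step. The control probe set for 5S ribosomal RNA lay below the floor on every array.

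Rpl23, another Mdm2-binding protein, whose start region carries a run of 10 pyrimidines, read 22006, 41178 and 36092 in the early, intermediate and late pools, 28554 in sham and 31067 in untreated lung. Early was lowest and intermediate highest, a ratio of 1.87 between them. A second probe set of this gene read 9366, 11978, 12127, 9748 and 10858, in nearly the same order of arrays and with smaller steps. Rpl13a, known from inflammation as part of a complex that silences mRNAs after interferon, read 14325, 22880, 22722, 18327 and 19781. Its second probe set went the other way on the early array, at 6671 against 5780 (sham) and 5970 (untreated). Rpl26, at the tunnel exit and with a run of 4 at its start, had log2 differences of -0.20, -0.06 and 0.12 from the mean of its controls, with 17492, 19299, 21790, 19417 and 20707.

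Rpl19l4, a gene named for its likeness to Rpl19, read 5017, 9530 and 5467 in the early, intermediate and late pools, 7168 in sham and 8987 in untreated lung. It was the 1 member below both controls on the late array, and its early value was low too. Rpl19 itself read 22059, 32275, 29383, 23483 and 25349 and kept the order of the family. Rpl35a, with 7811, 9579, 9876, 8464 and 10292, was highest on the untreated array. Rpl4, a wall of the peptide tunnel, was narrow, at 9403, 12363, 12285, 9799 and 10507. Rpl14, Rpl18, Rpl21, Rpl24, Rpl27, Rpl27a, Rpl31, Rpl36al1, Rpl39 and Rpl41 had early log2 differences from -0.35 (Rpl41) to -0.02 (Rpl18), intermediate differences from 0.19 (Rpl41 and Rpl36al1) to 0.43 (Rpl14) and late differences from 0.11 (Rpl27) to 0.51 (Rpl18).

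Rpl17, at the tunnel exit, was counted as higher on the intermediate array from a dim probe set, at 272.0 against 176.7 on the untreated array and values under the floor on the early, late and sham arrays. This is 1.54-fold over untreated and at least 1.58-fold over sham. The brightest probe set listing Rpl17 beside other symbols read 13225, 21473, 21896, 17826 and 19300. Rpl30 read 308.3 on the untreated array, 180.1 on the early and 177.5 on the late array, and the intermediate and sham values were under the floor. A brighter probe set listing Rpl30 beside other symbols read 7902, 7131, 9003, 8485 and 7325, with sham above untreated. Rpl3l, the form of Rpl3 known from heart and skeletal muscle, read 412.2, 336.4, 405.8, 528.9 and 352.1. Its second probe set lay under the floor on every array and did not share the higher sham value. The summed intensity of 8 cardiac muscle markers, which veins of the lung can bring, was 22162, 40215, 16406, 32401 and 59014, with the lowest sum on the late and the highest on the untreated array.

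Over the 40 members above the floor throughout, the highest and lowest arrays differed by 0.28 to 1.09 on the log2 scale, with a median of 0.60, or 1.52-fold. The share of summed intensity taken by the members' probe sets was 6.11%, 7.64% and 7.78% in the early, intermediate and late pools, 7.02% in sham and 7.16% in untreated lung. Ribosomal probe sets with several symbols, of which 38 were above the floor, were not used by the rule and had medians of -0.15, 0.23 and 0.29. They shared with the members the low early and high later values. Of them 0 were 1.5-fold from both controls on any exposed array.

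For 15 members with several probe sets above the floor, the differences of a gene's probe sets from the controls were spread over a median of 0.23, 0.12 and 0.13 for early, intermediate and late. Their signs were opposite in 3 genes for the early difference, 1 for the intermediate and 3 for the late one. The largest spreads, 0.70, 0.74 and 0.81, exceeded the members' median difference. In 9 genes a pair of probe sets was made from one sequence, and the step from early to intermediate was larger in the set with the g suffix in 6 of them.

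Set against each other without the controls, the exposed arrays differed most between early and later times. The median member was at -0.52 for early minus intermediate and -0.46 for early minus late, with -0.08 and -0.04 over all genes. On the early array 38 of 42 members lay below both other phases, against 41.5% of all genes and 75.3% of the other genes as bright as the members. At 1.5-fold 8 members (19%) were lower there, against 5.54% of all genes and 13.4% of those as bright: Rpl3, Rpl5, Rpl13a, Rpl22, Rpl23, Rpl35, Rpl36 and Rps24. Rpl22 read 16080, 25876 and 25886 for early, intermediate and late. Rpl36 read 11034, 18838 and 18613, and Rpl35, a neighbour of the tunnel exit, 16564, 27137 and 26499. Second probe sets of Rpl3, Rpl13a, Rpl23 and Rpl35 did not pass the 1.5-fold rule. That of Rpl3 read 13261, 19139 and 17522 for early, intermediate and late, and that of Rpl35 10966, 13916 and 14464. Brighter probe sets that list Rpl5 or Rps24 beside other symbols did not pass it either. Of all 60 probe sets of members above the floor on 1 array or more, 13 passed. They included further sets of Rpl21, Rpl24, Rps15, Rps29 and Rpsa, which were not the ones standing for their genes. Of 38 ribosomal probe sets with several symbols 8 passed. With scaling to the spiked controls 0 members were lower by this rule, with quantile normalization 2 and with 75th percentile scaling 13. Without probe sets from expressed sequence tags 4 of 27 members tested were lower. Rpl5, Rpl13a, Rpl22 and Rpl36 have no other probe sets of their own and were not among the 27.

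Intermediate and late arrays hardly differed. The median of late minus intermediate was within 0.05 of 0 in each subunit, at -0.05 in the small and 0.04 in the large. On the intermediate array 21 members (50%) stood above both other phases by any amount, against 38.2% of all genes and 47.4% of those as bright. On the late array 19 (45.2%) did, against 29.7% and 35.1%. At 1.5-fold Rpl17 and Rpl19l4 were higher on the intermediate array, against 3.16% of all genes. Both are described above, the first from values near the floor.

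Averaged over phases, the 3 exposed arrays were compared with the 2 unexposed ones by limma across 3667 genes. With Benjamini-Hochberg adjustment at 0.05 the limma test called 0 members higher and 0 lower, and 0.0% of all genes in either direction. At an unadjusted p under 0.05, 1 member was higher and 0 lower, with 176 and 80 genes in all. That member was Rpl6, with a log2 difference of 0.46 (SE 0.18), an unadjusted p of 0.0434 and an adjusted p of 0.698 by limma. Differences between phases and between sham and untreated are part of the error in this fit, and its p-values reflect the spread of these pooled arrays alone.

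**Figure D4:**
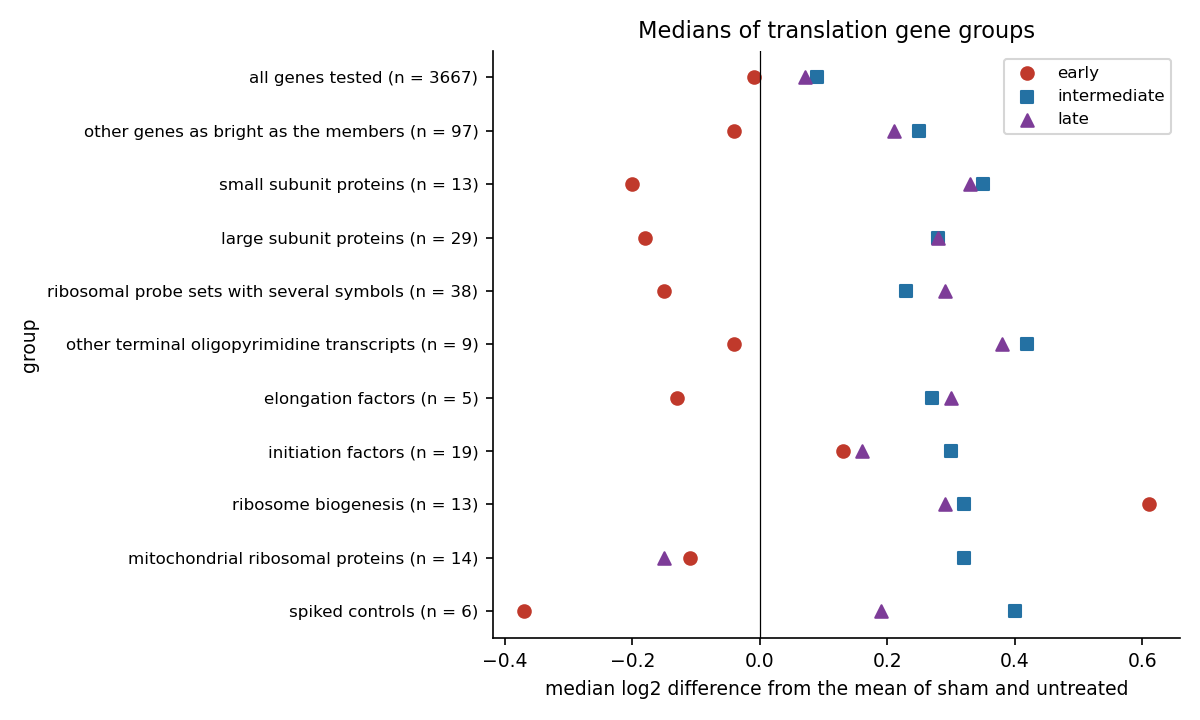
Median log2 difference from the mean of sham and untreated (x axis) on each exposed array for groups of translation genes (rows, with the number tested) under common-median scaling. Ribosome biogenesis genes have their highest median, 0.61, on the early array, where both ribosomal subunits are below 0 (above 0 when arrays are scaled to the spiked controls). The rows of initiation and elongation factors include regulators such as Eif2ak1 and Eef2k. Eef1a1, Eef1g and Eef2 are in both the elongation factor row and that of other terminal oligopyrimidine transcripts.

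Other genes of the translation machinery were read from lists chosen by role. Other transcripts known to carry a terminal oligopyrimidine tract, 9 of 22 measured, had medians of -0.04, 0.42 and 0.38; with scaling to the spiked controls these were 0.35, 0.01 and 0.16. At 1.5-fold from both controls 1 of the 9 passed, Hnrnpa1 on the late array, at 3938 against 2391 and 2619, where 3.05% of all genes were higher. Rack1, a small subunit protein whose symbol falls outside the rule, read 10970, 17374 and 18127 in the early, intermediate and late pools, 12184 in sham and 12818 in untreated lung. It was low on the early and high on both later arrays, as most members were. Elongation factors, listed with the kinase Eef2k and 5 of 10 measured, had medians of -0.13, 0.27 and 0.30. With scaling to the spiked controls these were 0.27, -0.14 and 0.08. Eef1a1, Eef1g and Eef2 are also among the 9 transcripts above, so the 2 lists are not separate. Eef1a1, which brings aminoacyl-tRNA to the ribosome, read 18040, 24774, 24388, 20189 and 19454. Eef1a2, its dim paralog of muscle and nerve, was at least 1.5-fold lower on the early and late arrays, where it lay under the floor, against 2.97% and 3.46% of all genes.

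Genes that build ribosomes had their highest list median on the early array. Of 52 listed biogenesis genes 13 were measured, with medians of 0.61, 0.32 and 0.29 for early, intermediate and late. Relative to all genes the early median was 0.62, and from 0.56 to 0.67 under the other scalings, while the intermediate median turned to -0.05 before that step with scaling to the spiked controls. On the early array 5 of 13 were at least 1.5-fold higher than both controls, against 6.84% of all genes, and 0 were lower. They were Nop58 and Nolc1 of the small nucleolar RNA machinery, the nucleolar GTPase Gnl3, the RNA polymerase I factor Ubtf and the helicase Ddx21. Ubtf read 694.3, 339.7 and 416.5 in the early, intermediate and late pools, 329.4 in sham and 339.3 in untreated lung, and Gnl3 1943, 1610, 1364, 1090 and 929.7. Both were highest on the early array, as were Nop58, Nolc1 and Ddx21, while Ncl, Dkc1, Polr1d, Mybbp1a and Mrto4 read higher on the intermediate array than on the early one. On the intermediate array Mrto4 passed, against 4.75% of all genes, and on the late array none did.

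Myc, which drives transcription of ribosomal genes and of biogenesis factors, read 1145, 422.7 and 500.2 in the early, intermediate and late pools, 490.4 in sham and 262.3 in untreated lung. Of 11 measured regulators Myc and Tbp were at least 1.5-fold higher on the early array, against 6.84% of all genes, with list medians of 0.16, 0.01 and 0.25, the second of which was below 0 under each other scaling. The list of initiation factors also holds regulators of them, the kinases Eif2ak1, Eif2ak2 and Eif2ak3 and the binding protein Eif4ebp1. Of its 42 genes 19 were measured, with medians of 0.13, 0.30 and 0.16, or 0.53, -0.11 and -0.06 with scaling to the spiked controls. At 1.5-fold 4 of the 19, Eif3b, Eif4a2, Eif4e and Eif5, were higher on the early array, against 6.84% of all genes, and Eif2s1 and Eif2b1 on the intermediate one, against 4.75%. Eif4e, the cap-binding protein, read 1280, 933.4, 854.8, 702.9 and 815.6.

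Mitochondrial ribosomal proteins, 14 genes chosen by symbol, had medians of -0.11, 0.32 and -0.15, and of 0.28, -0.08 and -0.37 with scaling to the spiked controls. Their late median lay below 0 under each scaling run, where that of the cytosolic family was above 0. On the late array 3 of the 14 were at least 1.5-fold lower than both controls, against 3.46% of all genes: Mrpl52, Mrpl58 and Mrps6. Mrpl52 read 1425, 1745 and 705.9 in the early, intermediate and late pools, 1234 in sham and 1469 in untreated lung. No difference between these lists and the members was tested.

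Marker sums of other cells also differed between arrays. The neutrophil markers S100a8 and S100a9, 2 of 10 listed, summed to 4971, 4048 and 2628 in the early, intermediate and late pools, 2155 in sham and 1519 in untreated lung, and the other 8, Mpo among them, had no value here. Of 12 macrophage and monocyte markers 3 were measured, with sums of 52150, 72243, 72530, 60660 and 54252, of which Lyz2 made up most. The sum was lowest on the early array, but Cd14 read 1455, 798.3, 884.8, 680.5 and 599.9, highest on the early array and over 1.5-fold above both controls there. The lung epithelium sums were 197915, 239624, 240369, 211329 and 201030, while the median differences of the list were -0.06, -0.04 and 0.12. Sftpa1 and Sftpc read higher on the intermediate and late arrays than on the others, and Aqp5 and Ager were highest on the early array. The part of cell composition in the members' values was not tested.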

How the data were processed

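The authors deposited a linear intensity for each probe set on 5 one-colour arrays. Means trimmed by 2% at both ends ranged from 1001.38 to 1001.63, from which scaling by the authors is read. Software and algorithm were not given in the sources used here. Control probe sets (59 of 8799) were left out except where named; 7006 of the other probe sets had 1 symbol in the platform annotation, 308 several and 1426 none. Each array was scaled to a common median, floored and taken to log2, and a gene was read from the probe set brightest on average over the 5 arrays. Depth does not apply, and the number of arrays limits precision. The 1 column of each array was used and 0 others.

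Identifiers of 42 members were found in the RefSeq table of GRCr8 with the same symbols; start regions were read for 36. Members at least 1.5-fold or 2-fold from each control array (sham, untreated) were counted beside all 3667 genes tested, with no test. Exposed against unexposed arrays were tested with limma 3.58.1 (lmFit, eBayes, Benjamini-Hochberg) in R 4.3.3. Other steps used Python 3.11.15 and pandas 2.3.3, and the steps were tested on simulated data. Alternatives were other scalings, floors, filters and probe set rules, each array left out, and a variance trend with robust eBayes. Values on all arrays were given for members past 1.5-fold, those farthest in a direction with none past it, the 5 smallest limma p, the 5 widest and narrowest ranges and members fixed by role, among others; further probe sets and members were named after their values were seen. Members and lists were chosen with earlier results of these data known.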

Additional observations from a re-analysis of the deposited data

Results flagged for a closer look

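The members' median relative to all genes was -0.17 on the early array, on the other side of 0 from the 0.22 of the intermediate array and the 0.21 of the late array. Each is measured against the same sham and untreated arrays. The difference between phases was not tested, since each had 1 array.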

How the results depend on the processing

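No member was called by limma under any setting run. The signs of the relative medians on the exposed arrays held in all. Scaling by a factor per array moves members and all genes alike, floored values aside, so those settings could hardly change these signs. Unsubtracted, the members' medians with scaling to the spiked controls turned to 0.20 on the early and -0.10 on the intermediate array. Counts at 1.5-fold are small and changed often; the cause was not tested. As deposited, 2 members were lower on the early array, 0 higher on the intermediate array and 1 higher there than in the other phases. With 75th percentile scaling these first counts were 2 and 0, and 13 members were lower on the early array than in the other phases. With quantile normalization 2 were lower early, 0 higher on the intermediate array and 2 lower early than in the other phases, with relative medians of -0.06, 0.04, 0.03 and, for sham against untreated, -0.08. A floor at the 20th percentile gave 1 lower on the intermediate array against the other phases. At the 60th percentile 40 members were tested. Counts were 0 lower early, 1 higher on the intermediate array, 1 higher there against the other phases and 0 either way for sham against untreated. Without a filter the relative medians were 0.31 and 0.28 on the intermediate and late arrays. The median of a gene's probe sets gave 0 higher in sham. Without probe sets made from expressed sequence tags 27 members were tested, and Rpl5 and Rpl3l were not among them. Counts were 0 lower early, 0 higher in sham and 4 lower early against other phases, with 0.29 for the intermediate median. Probe sets with no design letter, which left 31 members tested, gave 0 lower in sham and 1 higher on the intermediate array against other phases. Scaling to the spiked controls, chosen after seeing the data, gave 1 higher and 0 lower early, 0 higher on the intermediate array with a median of 0.13, 1 lower late, 1 higher and 0 lower early against other phases, and 0 higher on the intermediate array against them. Leaving out each control array in turn, members lower early numbered 1 to 4 (4 without sham) and higher early 0 to 1 (1 without untreated). Those higher on the intermediate array numbered 2 to 4 (4 without untreated), lower there 1 without either, higher late 0 to 3 (3 without untreated) and lower late 0 to 2 (2 without sham). With 1 control array left the rule is looser, so these counts could rise by the rule itself. Where the gene was tested, calls of Rpl5, Rpl17 and Rpsa were lost in 10 recomputations, kept in 24 and never reversed. Rpl17 with a floor at the 60th percentile and Rpl5 without probe sets from expressed sequence tags were not tested and are not in these numbers. Rpsa fell under 1.5-fold with values as deposited (0.47), 75th percentile (0.51), quantile (0.32) and spiked control scaling (0.23). No paired analysis was possible because each group had 1 array. Brightness limits Rpl5, Rpl17, Rpl30 and Rps24, which lay near the floor or had brighter probe sets with several symbols.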
